A study of Homo sapiens with 3 samples.

Results

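Axon guidance ligands and receptors are the genes that steer growing axons and migrating cells, and the 68 such genes on the array were followed here in 3 human neural cultures, a progenitor at day 17 and astrocytes of 2 kinds at day 210. Members were all genes named as ephrins (EFNA, EFNB), Eph receptors (EPHA, EPHB), semaphorins, plexins, neuropilins, slits, ROBO receptors, netrins, DCC or UNC5 receptors. They were taken from the 171 probe sets that carried such a name as their only gene symbol, out of 19775 genes on the array, and no measured value entered that choice. Of the 68 genes, 35 encode ligands and 33 encode receptors, although ephrins and membrane semaphorins can also signal back into the cell that carries them.

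The cells came from H9, an established human embryonic stem cell line, in which differentiation was started by lifting colonies off their mouse feeder cells and forming embryoid bodies. Neuroepithelial cells, an early neural progenitor that had received no morphogen, were sampled at day 17. Astrocyte cultures were sampled at day 210, after retinoic acid (RA), a caudalising signal, or FGF8, a signal of rostral brain organisers, had been given from day 10 to day 21. Each of the 3 groups had 1 array, all from the same line, so there was no replicate and no test, and a difference in bulk RNA cannot tell fewer cells of a type from less RNA per cell.

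In these families a short-range or secreted cue binds a receptor that reorganises the cytoskeleton of the growth cone. Ephrins, which stay attached to the membrane, mark borders through Eph receptor tyrosine kinases. Semaphorins act through plexins, with neuropilins as the binding subunit for most of the secreted class 3. Slits repel through ROBO receptors at the midline, and netrins attract through DCC and repel through UNC5 receptors. Astrocytes and their progenitors carry many of the same molecules and use them to place themselves and to shape nearby axons and synapses.

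Signals are linear array intensities after quantile normalization, and the floor of measurement was set at a signal of 26.4, the median of all probe sets. A gene below the floor on 1 of the arrays compared has a fold change that is a lower bound, written "at least". The labels could be set against markers. The 12 astrocyte markers summed to a signal of 17307 at day 17, 62905 after RA and 60280 after FGF8, and the 10 neuroepithelial markers to 28701, 14596 and 15223. GJA1 and FABP7, within 2-fold throughout, made up most of the day 17 astrocyte sum. SOX2 and NES made up most of the astrocyte arrays' neuroepithelial sums. In each astrocyte array 9 of 12 astrocyte markers were at least 2-fold higher and 0 lower. Of the 10 neuroepithelial markers 8 were lower and 1 higher for RA, and 7 lower and 0 higher for FGF8. The shares of all genes were 18.1% higher and 14.6% lower for RA, and 12.8% and 10.2% for FGF8. The ratio of 3' to 5' signal of ACTB, which is higher where RNA is shortened, was 1.33 in the neuroepithelial array and 6.67 and 6.63 in the RA and FGF8 arrays. That difference accompanies every comparison with neuroepithelial cells below, and its part in them was not tested.

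On the probe set that stood for each gene, the one of highest mean log2 signal, 51 of the 68 genes lay above the floor in neuroepithelial cells, 47 in RA astrocytes and 49 in FGF8 astrocytes, and 42 on all arrays. On that probe set the 12 genes at the floor on every array were EPHA1, EPHA5, EPHA6, EPHA8, EPHA10, SEMA3B, SEMA3D, SEMA3G, SEMA4A, SEMA6C, NTN3 and UNC5A. Of their other probe sets, 1 of EPHA5 reached 38.0 in RA astrocytes and 1 of SEMA4A reached 33.4 in neuroepithelial cells. The other 56 are plotted by family.

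**Figure D1:**
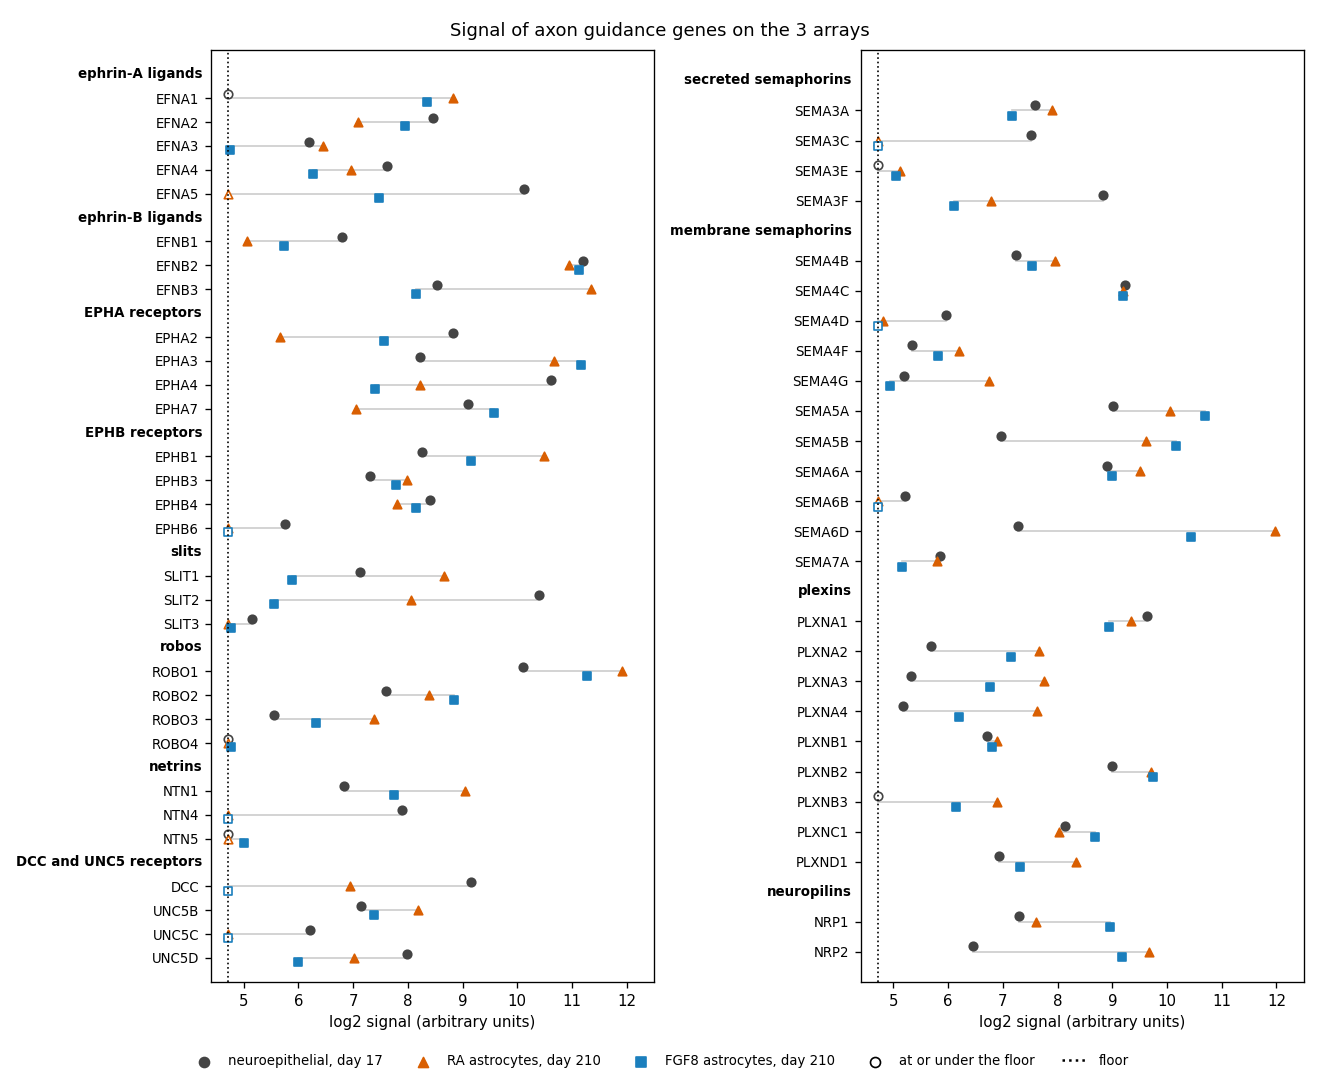
Log2 signal of the 56 axon guidance genes above the floor on at least 1 array, grouped by family, with 1 point for each array and open points at the floor (dotted line, log2 4.72). EFNA5, SLIT2 and DCC lie far to the right in neuroepithelial cells, and SEMA6D, NRP2 and the plexins PLXNA2 to PLXNA4 lie further right in both astrocyte arrays.

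The comparison of each astrocyte culture with neuroepithelial cells asks how guidance genes differ between the early progenitor and the glial stage. Both astrocyte arrays had higher signals of the repulsive semaphorin SEMA6D, of SEMA5A and SEMA5B, of the semaphorin receptors NRP2, PLXNA2, PLXNA3, PLXNA4 and PLXNB3, of the slit receptor ROBO1, the ephrin EFNA1 and the Eph receptor EPHA3. Both had lower signals of SLIT2, of the netrin receptors DCC and UNC5C, of NTN4, EFNA5, EFNB1, EPHA2, EPHA4, EPHB6, SEMA3C, SEMA3F and SEMA4D. Of the 54 members compared for RA astrocytes, 19 were higher and 14 lower by 2-fold or more, where 18.1% of all genes were higher and 14.6% lower by that size. In FGF8 astrocytes 13 of 56 were higher and 16 lower, where 12.8% of all genes were higher and 10.2% lower.

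In either direction 61.1% of the members compared for RA and 51.8% for FGF8 were past 2-fold, beside 32.7% and 23.1% of all genes. The median log2 difference of members was 0.30 for RA and 0.07 for FGF8, close to the medians of all genes, 0.07 and 0.05. Receptors had 11 higher and 6 lower of 26 in RA astrocytes and 9 higher and 6 lower of 27 in FGF8 astrocytes. Ligands had 8 higher and 8 lower of 28 in RA astrocytes and 4 higher and 10 lower of 29 in FGF8 astrocytes. The shares of all genes were 18.1% higher and 14.6% lower for RA and 12.8% and 10.2% for FGF8. Averaged over every probe set of each gene, receptors had 9 higher and 6 lower of 24 for RA. For FGF8 they then had 3 higher and 5 lower of 25. Ligands then had 5 higher and 6 lower of 24 for RA and 4 higher and 8 lower of 24 for FGF8. Among all genes so averaged, 15.8% were higher and 15.4% lower for RA, and 10.4% in each direction for FGF8. The astrocyte comparisons share the neuroepithelial array, so a shift on that array enters both. With array medians set equal, which moved the median of all genes to 0.35 for RA and 0.42 for FGF8, members split into 24 higher and 13 lower for RA and 18 higher and 11 lower for FGF8, beside 25.4% and 10.5%, and 21.9% and 7.02%, of all genes, and the share of higher genes among all genes past 2-fold went from 55.4% to 70.8% and from 55.6% to 75.8%.

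**Figure D2:**
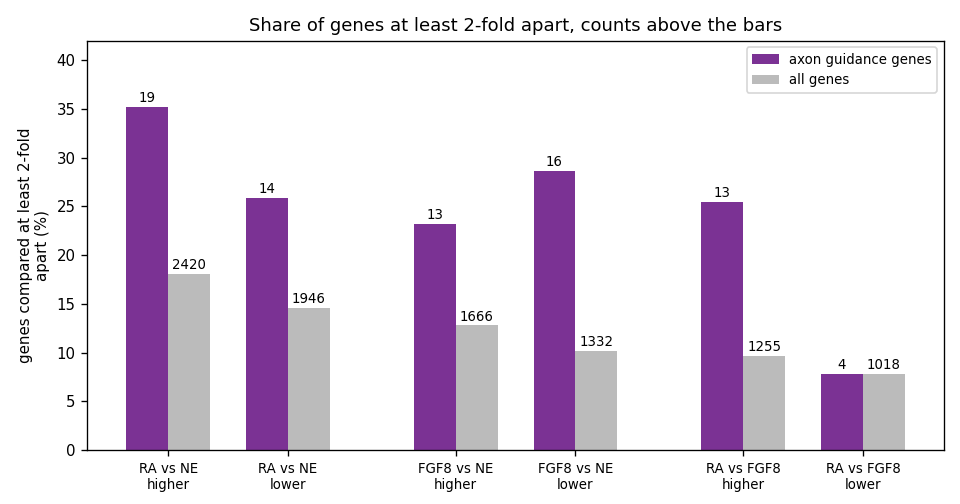
Percentage of genes compared that lay at least 2-fold apart, by comparison and direction, for the axon guidance genes (purple) and all genes (grey), with the number of genes above each bar; NE is the neuroepithelial array. The 4 guidance genes lower in RA than in FGF8 astrocytes are 7.84% of those compared, beside 7.86% of all genes.

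The comparison of RA with FGF8 astrocytes asks how guidance genes differed at day 210 between the cultures given each early morphogen. With no replicate culture, a morphogen effect could not be told from other differences between the cultures and was not tested. RA astrocytes had higher signals of EFNB3, SLIT1, SLIT2, DCC, SEMA4G, EFNA3, SEMA6D, PLXNA4, EPHB1, NTN1, ROBO3, UNC5D and PLXND1. FGF8 astrocytes had higher signals of EFNA5, EPHA7, EPHA2 and NRP1. These are 13 higher and 4 lower of 51 compared, where 9.69% of all genes were higher and 7.86% lower. The median over members was 0.47 and over all genes 0.01. With array medians set equal 11 members were higher and 4 lower, beside 9.22% and 9.26% of all genes.

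**Figure D3:**
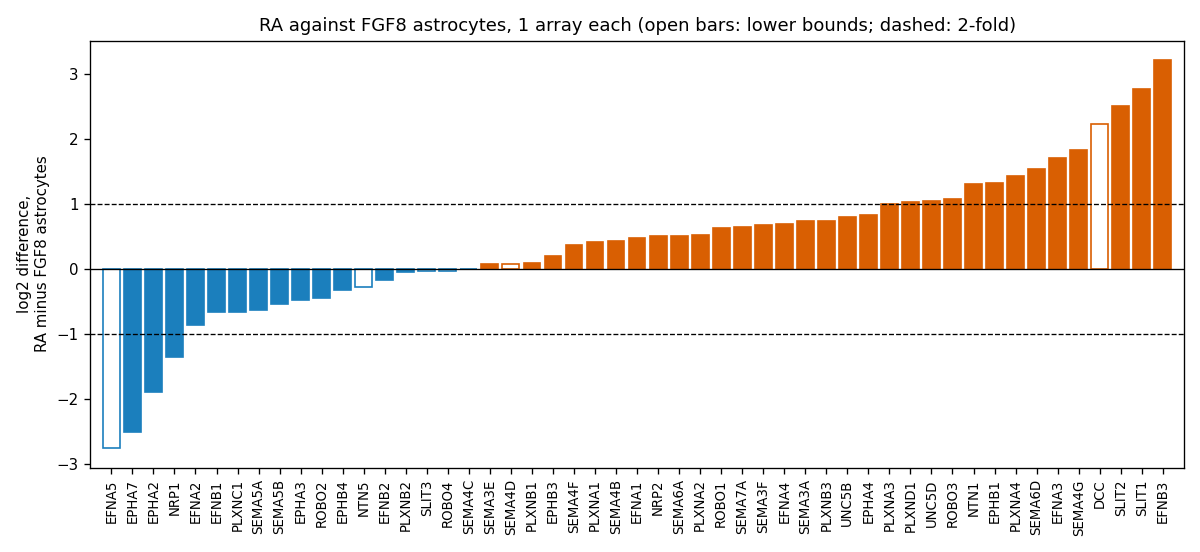
Log2 difference between RA and FGF8 astrocytes (1 array each) for the 51 axon guidance genes compared, ordered by value; open bars are lower bounds and dashed lines mark 2-fold. EFNB3 stands at 3.21 and EFNA5 at -2.76 or below.

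The proximal promoters of 4 genes are shown because these genes had large RA to FGF8 differences and 1 entry each in the promoter table, a choice made after their values were seen: SLIT1, SLIT2 and DCC were higher after RA, and EFNA5 was higher after FGF8. Each is the 250 bases before the start in RefSeq (GRCh38.p14), 5' to 3' on the gene's strand, with GC boxes (GGGCGG or its reverse CCGCCC) and nuclear receptor half-sites (AGGTCA or its reverse TGACCT) in capitals.
SLIT1, chr10:97185960-97186209, minus strand: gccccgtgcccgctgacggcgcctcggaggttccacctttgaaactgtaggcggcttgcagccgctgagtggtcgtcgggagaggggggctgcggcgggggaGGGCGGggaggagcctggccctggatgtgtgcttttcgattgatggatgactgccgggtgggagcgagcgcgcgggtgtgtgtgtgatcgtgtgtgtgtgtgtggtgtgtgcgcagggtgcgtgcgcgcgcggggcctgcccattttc
SLIT2, chr4:20251655-20251904, plus strand: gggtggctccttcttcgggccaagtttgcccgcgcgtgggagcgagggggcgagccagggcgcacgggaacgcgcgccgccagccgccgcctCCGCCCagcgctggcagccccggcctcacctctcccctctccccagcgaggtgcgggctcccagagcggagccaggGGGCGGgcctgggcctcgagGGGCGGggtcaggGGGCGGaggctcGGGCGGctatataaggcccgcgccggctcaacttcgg
DCC, chr18:52339947-52340196, plus strand: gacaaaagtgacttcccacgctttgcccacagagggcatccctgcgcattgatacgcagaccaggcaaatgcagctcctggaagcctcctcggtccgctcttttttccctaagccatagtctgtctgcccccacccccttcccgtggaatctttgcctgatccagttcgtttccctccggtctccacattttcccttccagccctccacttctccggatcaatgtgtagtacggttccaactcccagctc
EFNA5, chr5:107670938-107671187, minus strand: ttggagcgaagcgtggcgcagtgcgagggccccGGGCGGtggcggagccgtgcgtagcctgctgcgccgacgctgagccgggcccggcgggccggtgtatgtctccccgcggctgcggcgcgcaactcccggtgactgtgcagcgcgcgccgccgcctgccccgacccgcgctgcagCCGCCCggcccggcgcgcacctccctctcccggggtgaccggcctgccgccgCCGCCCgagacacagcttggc
SLIT2 held 5 GC boxes, EFNA5 held 3, SLIT1 held 1 and DCC held 0, while 42.6% of 35116 promoters in the table held at least 1 in the same window. The half-site was in 0 of the 4 windows, beside 12.1% of all promoters. Neither a TATAAA nor a CAGCTG motif, on either strand, was in these 4 windows, beside 10.7% and 14% of all promoters. GC content was 79.6% for EFNA5, 77.2% for SLIT2, 68.4% for SLIT1 and 56% for DCC, and the median of all promoters was 58%. Of the 68 genes, 58 had a promoter in the table (89 windows in all), and 69.7% of these windows held a GC box and 10.1% the half-site. A match is a description of letters and not of a site in use.

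Ephrin-A ligands, which are tied to the membrane by a lipid anchor, differed among themselves. EFNA5, a repulsive cue of topographic maps, had a signal of 1111 in neuroepithelial cells, 22.0 in RA astrocytes, below the floor, and 178 in FGF8 astrocytes. It was therefore high at day 17, intermediate after FGF8 and not measurable after RA: at least 42.1-fold lower in RA and 6.24-fold lower in FGF8 astrocytes. EFNA1 ran the other way, at 26.2 in neuroepithelial cells, just under the floor, 453 in RA and 326 in FGF8 astrocytes, so it was at least 17.2-fold and at least 12.4-fold higher, with the astrocyte arrays 1.39-fold apart. Against neuroepithelial cells higher was the only direction open to EFNA1. EFNA3 had 73.0 in neuroepithelial cells, 86.9 in RA and 26.8 in FGF8 astrocytes, the last just above the floor, and was 3.25-fold higher in RA than in FGF8 astrocytes. EFNA2 was highest in neuroepithelial cells (351, against 136 in RA and 246 in FGF8 astrocytes), and EFNA4 likewise (195, 124 and 76.9).

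Of their EPHA receptors, 4 of 9 were above the floor on the probe set used, and each of the 4 was past 2-fold in RA astrocytes. For RA against neuroepithelial cells 32.7% of all genes were past 2-fold. EPHA4, which binds ephrins of both classes and restrains corticospinal and astroglial processes, had 1579 in neuroepithelial cells, 299 in RA and 169 in FGF8 astrocytes, 5.28-fold and 9.34-fold lower in the astrocytes. EPHA3 was the receptor of the group that was higher in both, at 297 in neuroepithelial cells, 1632 in RA and 2281 in FGF8 astrocytes (5.49-fold and 7.67-fold). The remaining pair separated the astrocyte cultures. EPHA7, a receptor with sharp regional borders in the embryonic brain, had 548 in neuroepithelial cells, 134 in RA and 763 in FGF8 astrocytes, so that RA astrocytes were 4.10-fold lower than the progenitor and FGF8 astrocytes 1.39-fold higher. Other probe sets of EPHA7 put RA astrocytes lower by 4.21-fold and 8.10-fold, but FGF8 astrocytes also lower, by 2.10-fold (131, 31.2 and 62.5) and 1.20-fold (239, 29.5 and 199). EPHA2 had 453, 51.0 and 190, which placed FGF8 astrocytes 3.73-fold above RA astrocytes and both below the progenitor.

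Ephrin-B ligands, which cross the membrane and signal in reverse through their tails, held the largest RA to FGF8 difference among members measured on both arrays. EFNB3, a midline barrier to crossing axons, had 369 in neuroepithelial cells, 2610 in RA and 282 in FGF8 astrocytes. The RA array stood apart, 7.08-fold above the progenitor and 9.25-fold above FGF8 astrocytes, while the FGF8 array lay 1.31-fold below the progenitor. EFNB2, an artery and progenitor ephrin, was nearly level at 2370, 1965 and 2232. EFNB1 was low in both astrocyte arrays, at 112 in neuroepithelial cells, 33.3 in RA and 53.0 in FGF8 astrocytes, or 3.35-fold and 2.10-fold lower. The FGF8 value did not pass 2-fold with array medians set equal.

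Among EPHB receptors EPHB1, which meets ephrin-B at the midline, had 306 in neuroepithelial cells, 1428 in RA and 573 in FGF8 astrocytes. RA astrocytes were 4.67-fold above the progenitor and 2.49-fold above FGF8 astrocytes, and its other probe sets gave RA to FGF8 values of 3.52-fold and at least 3.62-fold. EPHB3 (158, 255 and 221) and EPHB4 (338, 223 and 282) were within 2-fold on all comparisons. EPHB6, a member without kinase activity, was above the floor in neuroepithelial cells only, at 54.0, so its lower call in both astrocyte arrays, at least 2.05-fold, was the only direction open to it.

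Secreted class 3 semaphorins repel axons through neuropilin and plexin complexes. They were at least 2-fold higher in 0 of 4 genes compared in either astrocyte array, and lower in 2. The shares of all genes were 18.1% higher and 14.6% lower for RA, and 12.8% and 10.2% for FGF8. SEMA3F, the ligand of NRP2, had 454 in neuroepithelial cells, 110 in RA and 68.8 in FGF8 astrocytes, 4.12-fold and 6.60-fold lower, on a single probe set above the floor. SEMA3C was at 183 in neuroepithelial cells and below the floor in both astrocyte arrays, at least 6.94-fold lower, the only direction open to it. SEMA3A, the classical collapsing factor and ligand of NRP1, was within 2-fold throughout (191, 237 and 143), and another of its probe sets gave -0.88 for RA against neuroepithelial cells where the main one gave 0.31. SEMA3E was at 34.7 in RA and 33.0 in FGF8 astrocytes, near the floor, and under it in neuroepithelial cells, so it could not reach 2-fold. Without a floor, 2 of 7 class 3 genes were higher and 3 lower in each astrocyte array. A probe set shared by SEMA3B and a microRNA gene was left out of these counts. Its signals were 3.0 in neuroepithelial cells, 124 in RA and 51.2 in FGF8 astrocytes.

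Of 11 membrane semaphorins compared, 4 (36.4%) were higher and 1 (9.09%) lower in RA astrocytes, beside 18.1% and 14.6% of all genes, and 3 (27.3%) were higher and 1 (9.09%) lower in FGF8 astrocytes, beside 12.8% and 10.2%. The FGF8 values lay above 0 for 6 genes and below it for 5, and with probe sets averaged RA had 2 higher and 1 lower of 9. SEMA6D, a ligand of class A plexins, had 155 in neuroepithelial cells, 4008 in RA and 1392 in FGF8 astrocytes. The order was the same on 3 further probe sets: SEMA6D was 25.9-fold higher in RA and 8.98-fold higher in FGF8 astrocytes on the main one, and RA stood 2.88-fold above FGF8 astrocytes. SEMA5B, a thrombospondin-repeat semaphorin, had 125, 784 and 1151, which is 6.27-fold and 9.20-fold higher. Its relative SEMA5A had 519 in neuroepithelial cells, 1071 in RA and 1654 in FGF8 astrocytes, 2.06-fold and 3.19-fold higher, and its other probe sets gave 1.57-fold and 1.82-fold in RA astrocytes.

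SEMA4G was high in the RA array alone, at 108 against 36.5 in neuroepithelial cells and 30.6 in FGF8 astrocytes. SEMA4D, a ligand of PLXNB1, was highest in neuroepithelial cells at 62.4, with 27.8 in RA astrocytes and the floor in FGF8 astrocytes, and another probe set was lower in astrocytes by at least 5.86-fold and by 4.10-fold. SEMA6A, which shares its receptors with SEMA6D, was within 2-fold on its main probe set (476, 727 and 512), but another of its probe sets put the RA array 2.76-fold above neuroepithelial cells and another gave -0.37. SEMA4B, SEMA4C, SEMA4F and SEMA7A did not pass 2-fold in the 3 comparisons. SEMA6B was within 2-fold against neuroepithelial cells and not compared between the astrocyte cultures, where a probe set of the cross-hybridising type was at least 2.01-fold higher in RA astrocytes (29.3 in neuroepithelial cells, 52.9 in RA and 21.0, under the floor, in FGF8 astrocytes). SEMA4C was nearly level, at 603, 583 and 587.

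Plexins are the signalling receptors for semaphorins. They were at least 2-fold higher in 5 of 9 genes in RA astrocytes and in 4 of 9 in FGF8 astrocytes, and lower in 0. All genes had 18.1% higher and 14.6% lower for RA, and 12.8% and 10.2% for FGF8. Averaged over every probe set of each gene, the counts were 3 higher and 2 lower for RA and 1 higher and 1 lower for FGF8, where 15.8% of all genes were higher and 15.4% lower for RA and 10.4% in each direction for FGF8. PLXNA2 had 51.5 in neuroepithelial cells, 203 in RA and 141 in FGF8 astrocytes, 3.94-fold and 2.74-fold higher. PLXNA3 had 40.0, 216 and 109, with the same order of arrays and 5.40-fold and 2.71-fold higher. These class A plexins are the partners of neuropilins and the receptors of class 6 semaphorins.

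PLXNA4, the receptor of SEMA3A and SEMA6A on sensory and sympathetic axons, had 36.3 in neuroepithelial cells, 197 in RA and 73.1 in FGF8 astrocytes. It was 5.42-fold higher in RA astrocytes, and 2.69-fold above FGF8 astrocytes, but another probe set gave -0.16 for that difference, so the gap between the astrocyte cultures rests on 1 probe set. PLXNB3, the receptor of SEMA5A, was under the floor in neuroepithelial cells and at 118 in RA and 71.0 in FGF8 astrocytes, at least 4.49-fold and at least 2.69-fold higher. Higher was the only direction open to PLXNB3 against neuroepithelial cells. PLXND1, which binds SEMA3E directly, was high in RA astrocytes only (122, 325 and 159). PLXNA1 (795, 654 and 492), PLXNB1 (105, 119 and 112), PLXNB2 (509, 835 and 864) and PLXNC1 (281, 259 and 413) were within 2-fold, although PLXNC1 had another probe set at least 2.01-fold lower in both astrocyte arrays.

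Both neuropilins were at least 2-fold higher in FGF8 astrocytes and 1 of them in RA astrocytes. That size was reached upwards by 12.8% of all genes for FGF8 and 18.1% for RA. NRP2 had 87.6 in neuroepithelial cells, 817 in RA and 576 in FGF8 astrocytes, 9.33-fold and 6.58-fold higher. It has 11 probe sets, and 9 of the 10 others were above the floor on at least 1 array. The exception in direction was a probe set near the floor, at -0.10 for RA against neuroepithelial cells. NRP1, also a co-receptor for VEGF, was high in the FGF8 array alone: 158 in neuroepithelial cells, 193 in RA and 498 in FGF8 astrocytes, 3.15-fold above the progenitor and 2.57-fold above RA astrocytes. Its other measured probe set placed FGF8 1.79-fold above RA astrocytes.

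Slits are large secreted repellents of the midline, and 2 of the 3 were at least 2-fold apart between the astrocyte cultures. In that comparison 17.5% of all genes were. SLIT2 had 1337 in neuroepithelial cells, 265 in RA and 46.9 in FGF8 astrocytes, a stepwise order that its 2 other probe sets repeated (1303, 242 and 46.7; 621, 177 and 34.0). It was 5.05-fold lower in RA and 28.5-fold lower in FGF8 astrocytes, with RA 5.65-fold above FGF8. SLIT1 was the only guidance gene past 2-fold in opposite directions: 139 in neuroepithelial cells, 405 in RA and 59.4 in FGF8 astrocytes, 2.92-fold higher and 2.34-fold lower. Its other probe set was under the floor on all arrays. SLIT3 stayed near the floor (35.7 in neuroepithelial cells and 27.1 in FGF8 astrocytes).

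Slit receptors were at least 2-fold higher in 2 of 3 genes in RA and 2 of 4 in FGF8 astrocytes, and lower in 0. Among all genes 18.1% were higher and 14.6% lower for RA, and 12.8% and 10.2% for FGF8. With so few genes, 0 lower was not far from these shares. ROBO1 had 1104 in neuroepithelial cells, 3864 in RA and 2495 in FGF8 astrocytes, 3.50-fold and 2.26-fold higher. ROBO2, which acts beside ROBO1 in most slit responses, had 194, 336 and 458 and passed 2-fold in FGF8 astrocytes only, at 2.36-fold. Another probe set of ROBO2 had 67.7, 90.6 and 116, 1.34-fold and 1.71-fold higher. A probe set of ROBO2 of the cross-hybridising type had 91.4, 26.8 and 87.7. It was 3.41-fold lower in RA astrocytes than in neuroepithelial cells and nearly level in FGF8 astrocytes. ROBO3, which lets commissural axons approach the midline, had 47.2 in neuroepithelial cells, 168 in RA and 80.0 in FGF8 astrocytes and was 3.55-fold above the progenitor in RA astrocytes. ROBO4, a receptor of endothelium, was at 27.0 in FGF8 astrocytes, at the edge of the floor, and under it on the other arrays.

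Among netrins, NTN1, the secreted attractant of commissural axons, had 114 in neuroepithelial cells, 532 in RA and 215 in FGF8 astrocytes. The RA array stood highest, 4.65-fold above the progenitor and 2.48-fold above FGF8 astrocytes, on a single probe set; the others were at or near the floor, and the averages of all probe sets did not pass 2-fold between the astrocyte cultures. NTN4, a basement membrane netrin, was at 239 in neuroepithelial cells and below the floor in both astrocyte arrays, at least 9.08-fold lower. Lower was the only direction open to NTN4. NTN5 was at 32.1 in FGF8 astrocytes and under the floor elsewhere.

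Of the 4 DCC and UNC5 receptors compared, 2 were lower and 1 higher in RA astrocytes, and 3 were lower in FGF8 astrocytes. Beside these, 14.6% of all genes were lower and 18.1% higher for RA, and 10.2% lower for FGF8. DCC had 573 in neuroepithelial cells, 124 in RA astrocytes and a signal under the floor in FGF8 astrocytes. It was 4.63-fold lower in RA and at least 21.7-fold lower in FGF8 astrocytes, and RA stood at least 4.69-fold above FGF8. A second probe set of DCC had 103 in neuroepithelial cells and lay under the floor in both astrocyte arrays, so the RA to FGF8 difference rests on 1 probe set, and with the floor at the 70th percentile it was 0.37. UNC5D had 252 in neuroepithelial cells, 130 in RA and 63.4 in FGF8 astrocytes, 1.94-fold and 3.98-fold lower. UNC5C was at 74.4 in neuroepithelial cells and under the floor in both astrocyte arrays, so lower was the only direction open to it. UNC5B, the receptor shared with vascular guidance, was the exception: it had 141, 290 and 166 and was 2.06-fold higher in RA astrocytes, with other probe sets at 3.66-fold and at least 8.13-fold.

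Some calls depended on a setting. With array medians set equal EPHB6 was no longer past 2-fold for RA, and EFNA4, EFNB1, EPHA2, EPHB6 and SLIT1 for FGF8 against neuroepithelial cells, nor PLXND1 and UNC5D between the astrocyte cultures; on the deposited values UNC5B was lost for RA and PLXNA4 for FGF8. Averaging all probe sets of a gene ended 9 calls for RA (DCC, EFNA2, PLXNA4, PLXND1, SEMA3F, SEMA4G, SEMA5A, SLIT1 and UNC5C), 10 for FGF8 (DCC, EPHA3, NRP1, PLXNA2, PLXNA3, PLXNA4, ROBO2, SEMA3F, SLIT1 and UNC5C) and 7 between the cultures (DCC, EFNA5, NRP1, NTN1, PLXNA4, PLXND1 and SEMA4G). EPHA3, SEMA3C and EFNA4 rest on _s_at probe sets, which can match related transcripts. Without that type they lost their calls, which for EFNA4 was the FGF8 call only.

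Where a gene past 2-fold had other measured probe sets outside the cross-hybridising type, these mostly gave the same direction. For RA against neuroepithelial cells 37 of 39 such probe sets, from 19 genes, had the direction of the main one and 30 also passed 2-fold. The counts were 31 of 31 (23 past 2-fold) for FGF8 against neuroepithelial cells and 15 of 16 (10 past 2-fold) for RA against FGF8 astrocytes. The exceptions were NRP2, NTN1 and PLXNA4, all within 2-fold. Probe sets of 1 gene share the same RNA and are not replicates of the culture.

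**Figure D4:**
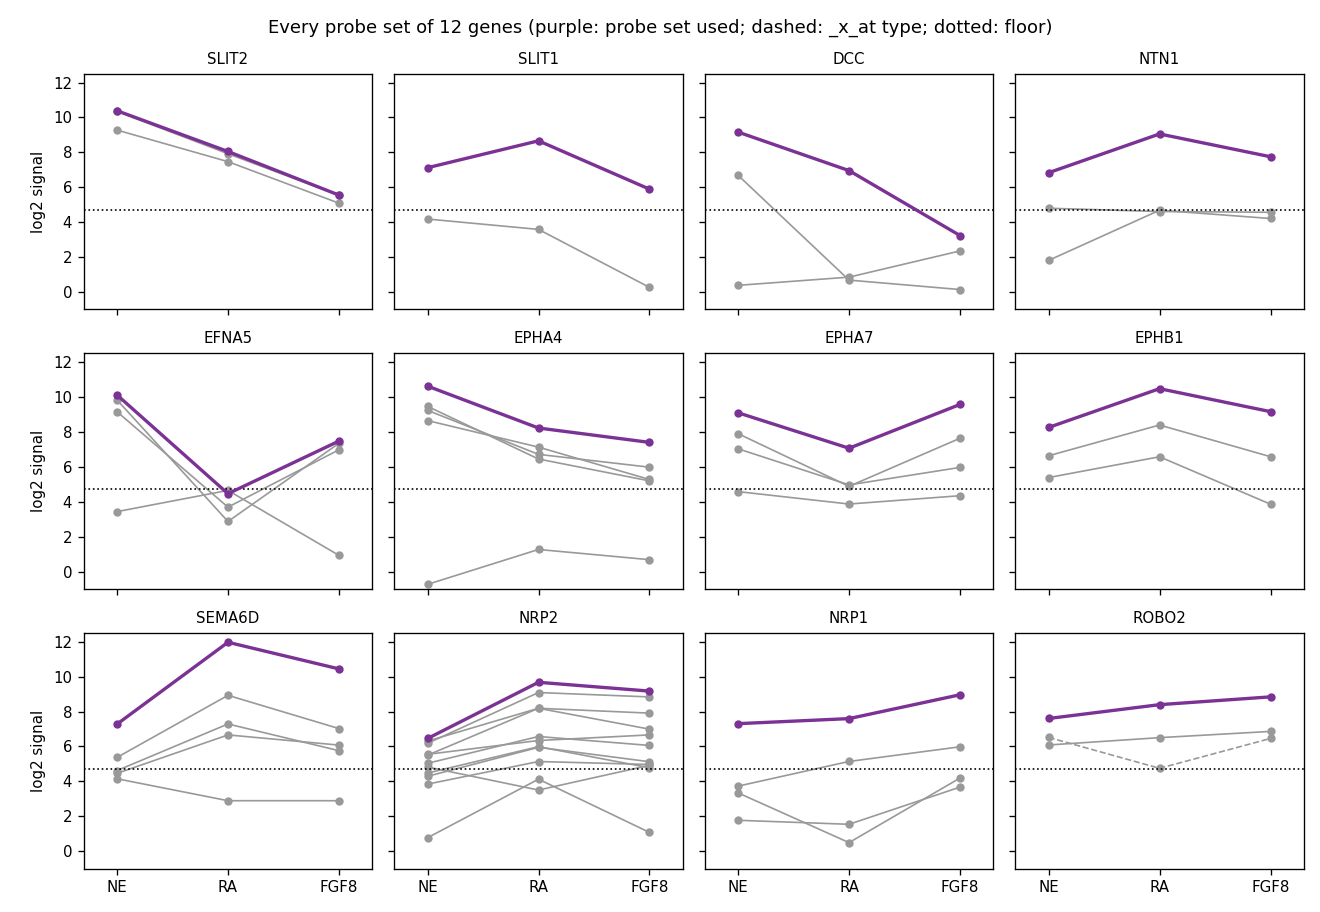
Log2 signal of every probe set of 12 axon guidance genes on the neuroepithelial (NE), RA and FGF8 arrays; the probe set used is purple, others are grey, and the dotted line is the floor at 4.72. The probe sets of SLIT2 and of EPHA4 above the floor run in parallel. For SLIT1, NTN1 and DCC only the purple line is above the floor on the RA or FGF8 array.

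Partners of these receptors were taken as further lists. Of 30 membrane and extracellular partners 29 were on the array, and 9 were at least 2-fold higher and 6 lower of 26 compared in RA astrocytes, 4 higher and 7 lower of 26 in FGF8 astrocytes, and 10 higher and 1 lower of 24 for RA against FGF8, with medians of 0.16, 0.24 and 0.28. These are 34.6% higher and 23.1% lower for RA (18.1% and 14.6% of all genes), 15.4% and 26.9% for FGF8 (12.8% and 10.2%), and 41.7% and 4.17% for RA against FGF8 (9.69% and 7.86%). The adhesion molecule CHL1 had 30.2 in neuroepithelial cells, just above the floor, 5337 in RA and 2180 in FGF8 astrocytes. The heparan sulphate proteoglycans GPC1 and SDC3, which bind slits and other cues, were 7.70-fold and 7.82-fold higher in RA and 3.21-fold and 2.33-fold higher in FGF8 astrocytes. LRRC4C, the ligand of netrin-G1, was 6.88-fold higher in RA astrocytes and 5.66-fold above FGF8 astrocytes. LINGO1, a co-receptor for myelin inhibitors, was 6.77-fold and 3.49-fold lower, and MET, which pairs with plexins, was at least 3.48-fold lower in both. FLRT3, a co-receptor of ROBO1, was 4.87-fold lower in FGF8 astrocytes and 5.25-fold higher in RA than in FGF8 astrocytes, and L1CAM, a partner of NRP1, was at least 2.93-fold lower in RA than in FGF8 astrocytes.

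Of 68 intracellular partners 61 were on the array. In RA astrocytes 13 of 58 were higher and 4 lower, in FGF8 astrocytes 7 of 59 higher and 4 lower, and between RA and FGF8 7 of 57 higher and 3 lower, with medians of 0.35, 0.19 and 0.14. In either direction these are 29.3%, 18.6% and 17.5% of those compared, at or below the 32.7%, 23.1% and 17.5% of all genes. TRIM9, a ubiquitin ligase that binds DCC, was 23-fold and 14.6-fold higher. The growth cone protein GAP43 had 922 in neuroepithelial cells, 12114 in RA and 5168 in FGF8 astrocytes. MICAL3, of the family that links plexins to actin, was 6.24-fold and 5.17-fold higher, while its relative MICAL2 was at least 4.49-fold and 2.64-fold lower. The slit effector SRGAP1 was 2.78-fold and 4.02-fold higher. Its relative SRGAP2 was at least 2.73-fold lower in RA and 1.40-fold higher in FGF8 astrocytes, and SRGAP3 was within 2-fold. Between the astrocyte cultures the plexin target RRAS was at least 6.81-fold, the actin regulator VASP at least 5.07-fold, and the cofilin kinases LIMK1 and LIMK2 4.46-fold and 3.75-fold higher in RA, and the filopodial myosin MYO10 was 4.07-fold lower. ARHGEF28 and SRGAP2 were at least 3.88-fold and at least 3.81-fold lower in RA than in FGF8 astrocytes.

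Markers of other cells moved with the groups. The 12 neuron markers, of which 12, 10 and 10 were above the floor, summed to 19188 in the neuroepithelial, 15300 in the RA and 21736 in the FGF8 array. Against neuroepithelial cells 7 were lower and 1 higher in RA astrocytes, beside 14.6% and 18.1% of all genes. In FGF8 astrocytes 4 were lower and 3 higher, beside 10.2% and 12.8%. Between RA and FGF8 astrocytes 4 of 11 were lower and 2 higher, beside 7.86% and 9.69%, so the list did not move as 1. Named after their values were seen, DCX, of migrating neurons, had 2058, 583 and 6738, and STMN2 had 2238 and 153, with a signal under the floor in FGF8 astrocytes. The 6 markers of dividing cells summed to 11520, 1139 and 7004, so the RA array stood lowest. Mesenchyme and neural crest markers summed to 9063, 107 and 488, with 7 of 8 above the floor in the neuroepithelial array and 1 and 3 in the RA and FGF8 arrays. Oligodendrocyte lineage markers summed to 687, 2738 and 7640 (5, 5 and 4 of 7 above the floor). Most of each sum came from PDGFRA (173, 794 and 5997) and CNP (311, 1664 and 1191). OLIG2 was within 2-fold (60.3, 64.6 and 106), and MBP was near or under the floor (15.0, 30.9 and 22.9). SOX10 was at 32.9 in neuroepithelial cells and under the floor in both astrocyte arrays, and MOG was under it on all arrays. Of the 5 endothelial markers 3, 1 and 2 were above the floor, and of the 5 microglia markers 0, 1 and 0. The part of these cells in the guidance gene differences was not tested.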

How the data were processed

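Values are the intensities the authors deposited for 54675 probe sets on 3 arrays, 1 a group. Per the labels' protocols, total RNA was extracted with Trizol and a column cleanup and biotin-labelled at a core facility; how the signals were computed from the scans is stated by no label or header. Each array's deposited intensity had a trimmed mean (2% taken off each end) of 150.018 to 150.021. The linear intensities of the 54613 non-control probe sets were quantile normalized, because the 75th percentiles differed by 0.14 log2 units, and then brought to log2. Values below the median (log2 4.72) were raised to it. For each gene the probe set of highest mean log2 signal stood in, without the _x_at type where another existed; probe sets with several symbols were left out. A gene was compared where 1 of 2 arrays exceeded the floor, and counted at a difference of at least 2-fold. With 1 array a group no p-value was computed; precision is limited by having so few arrays. Gene identifiers of all 171 member probe sets matched the human reference gene table. The members, lists, floor and naming rule were chosen with earlier results of these data known. The rule names every member above the floor, up to 4 of each family in full, and up to 4 partners a direction and comparison. The settings varied were scaling (deposited values or equal array medians), no floor or one at the 70th percentile, the mean of all probe sets, leaving out _x_at and _s_at probe sets, and 4-fold. Counting was tested on simulated data. Python 3.11.15, numpy 2.4.6 and pandas 2.3.3 were used.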

Additional observations from a re-analysis of the deposited data

Results flagged for a closer look

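SLIT1 differed from neuroepithelial cells in opposite directions in the astrocyte cultures, by 1.54 after RA and by -1.22 after FGF8 on the log2 scale. That difference was not tested, since each group had 1 array, and it rests on 1 probe set. With array medians set equal the values were 1.87 and -0.92.

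A probe set left out because it carries 2 symbols, SEMA3B and the microRNA gene MIR6872, had a signal of 3.0 in neuroepithelial cells, 124 in RA astrocytes and 51.2 in FGF8 astrocytes. The probe set of SEMA3B alone was under the floor on all arrays, and the 2 were not reconciled.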

How the results depend on the processing

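Of 33 genes past 2-fold for RA against neuroepithelial cells, 16 kept their call under every alternative but the 4-fold size; the numbers were 11 of 29 for FGF8 against neuroepithelial cells and 6 of 17 for RA against FGF8 astrocytes (EFNB3, EPHA7, EPHB1, SEMA6D, SLIT1 and SLIT2). Under both other scalings 31, 23 and 15 kept it. With the floor at the 70th percentile, 9 genes were lower for RA and 9 for FGF8 against neuroepithelial cells, and 8 were higher and 2 lower for RA against FGF8, beside 13%, 8.17%, 8.14% and 6.26% of all genes. Without a floor 9 of 68 were lower for RA against FGF8, beside 16.1% of all genes. With the mean of all probe sets 7 were higher for FGF8 against neuroepithelial cells and 2 lower for RA against FGF8, beside 10.4% and 8.31% of all genes. At 4-fold, 11 were higher and 9 lower for RA, 5 higher and 7 lower for FGF8, and 4 higher and 2 lower for RA against FGF8, beside 6.52% and 5.46%, 3.71% and 3.51%, and 2.5% and 2.65% of all genes. The median for FGF8 against neuroepithelial cells, 0.07, was -0.02 with the deposited values, 0.38 with equal array medians, -0.22 when probe sets were averaged and -0.17 when _x_at and _s_at types were left out; the cause was not tested. PLXNB1 turned from 0.19 to -1.0 for RA against neuroepithelial cells with the mean of all probe sets. No paired analysis was possible because each group has 1 array.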
